A study of Bos taurus with 6 samples.

Results

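The miR-17~92 and miR-106b~25 clusters are 2 groups of neighbouring microRNA (miRNA) genes, and 10 of the 765 miRNAs in the deposited bovine table are their mature products. They were chosen by name: bta-miR-17-5p, bta-miR-17-3p, bta-miR-18a, bta-miR-19a, bta-miR-20a, bta-miR-19b and bta-miR-92a for the first cluster, and bta-miR-106b, bta-miR-93 and bta-miR-25 for the second (the prefix bta, for Bos taurus, is left out below). The rule goes by name and cluster. The cells were primary myoblasts, the dividing precursors of muscle fibres, taken from the longissimus dorsi of fetal beef cattle. In the RSV group, 3 cultures received 20 μM resveratrol (RSV), a plant polyphenol, dissolved in DMSO, and in the DMSO group 3 cultures received the solvent alone. Both groups were kept in differentiation medium, over 4 days by the series record. Small RNA and mRNA of each sample were sequenced, and the table gives 1 mean per group and no column for a single sample. The labels do not say whether the cultures came from separate animals.

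Each cluster is transcribed as 1 long RNA from which several hairpins are cut, and each hairpin yields a miRNA that guides silencing of mRNAs through a short 5′ stretch called the seed. The 10 miRNAs fall into the miR-17, miR-18, miR-19 and miR-92 seed families, with miR-17-3p, from the opposite arm of the miR-17 hairpin, in none of them. The clusters are driven by MYC and E2F factors, repress brakes on the cell cycle such as CDKN1A, and are known for high activity in dividing cells, which myoblasts leave as they differentiate. In the RefSeq gene table (ARS-UCD2.0), the 6 precursor genes of miR-17~92 lay next to each other in the order MIR17, MIR18A, MIR19A, MIR20A, MIR19B and MIR92A-1, with 0 other genes between them. The 3 genes of miR-106b~25 lay within MCM7, which encodes a part of the replicative helicase. A paralogous cluster, miR-106a-363, holds a second gene copy for miR-19b and for miR-92a, so the reads of these mature miRNAs can come from either locus.

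The values are normalized reads, that is read counts divided by a size factor that scales each library. The low group means could be broken down into the whole reads of each library. This gave the reads of single libraries for 599 of the 765 miRNAs, and for all 583 with both means up to 400. Means over 1000 were left out of the search, so the 146 miRNAs with the higher mean over 1000 have no recovered reads. The RSV libraries had size factors of 1.54, 1.29 and 0.935, and the DMSO libraries 0.922, 0.823 and 0.729, and these factors name the libraries below because they carry no sample number. The recovered reads ran from 18524 to 39516 per library, which is part of a library and not its depth. Over recovered miRNAs, pairs of RSV libraries differed by 4.17 to 5.72 times the variance that counting alone gives, and pairs of DMSO libraries by 1.53 to 1.71 times. All 7 muscle miRNAs of the marker list were found, with the authors' mean of miR-206, a miRNA of skeletal muscle, at 127629 normalized reads in RSV and 139464 in DMSO. By group mean 3 of the 7 were higher in RSV (miR-133a, miR-133b and miR-499) and 4 lower. Of the 3 with recovered reads 1 was called, miR-499, a miRNA of slow muscle fibres, at 91.5, 162 and 89.8 normalized reads in RSV and 41.2, 44.9 and 52.1 in DMSO, with a log2 fold change of 1.27 and an adjusted P-value of 0.0197 by limma voom. Its part in the members' values was not tested.

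The 10 cluster miRNAs differed little between RSV and DMSO. The authors' RSV mean was higher for 8 and lower for 2, and every log2 ratio of RSV over DMSO lay between -0.10 and 0.17. Among the 8, the sign was not stable for miR-17-5p and miR-17-3p. The ratio of miR-17-5p was 0.0014, and -0.0036 less the median of miRNAs with a mean of at least 10. That of miR-17-3p was 0.024 by group means, and its log2 fold change by limma voom was -0.0099. The 3 miRNAs of miR-106b~25 were all higher, by 8.09% to 9.43%, while the 7 of miR-17~92 went both ways and their summed means were 36338 normalized reads in RSV and 36382 in DMSO. For miR-20a and miR-19b the direction depends on the scaling: they were lower in normalized reads and higher as a share of all miRNA reads. None of the 10 passed a 1.5-fold difference, against 9.72% of the 391 miRNAs with a mean of at least 10 and 2.05% of the 146 with a mean of at least 1000. With shares this low, none of 10 passing does not set the members apart. In bulk samples such as these, fewer cells of a type and less RNA per cell cannot be told apart.

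**Figure D1:**
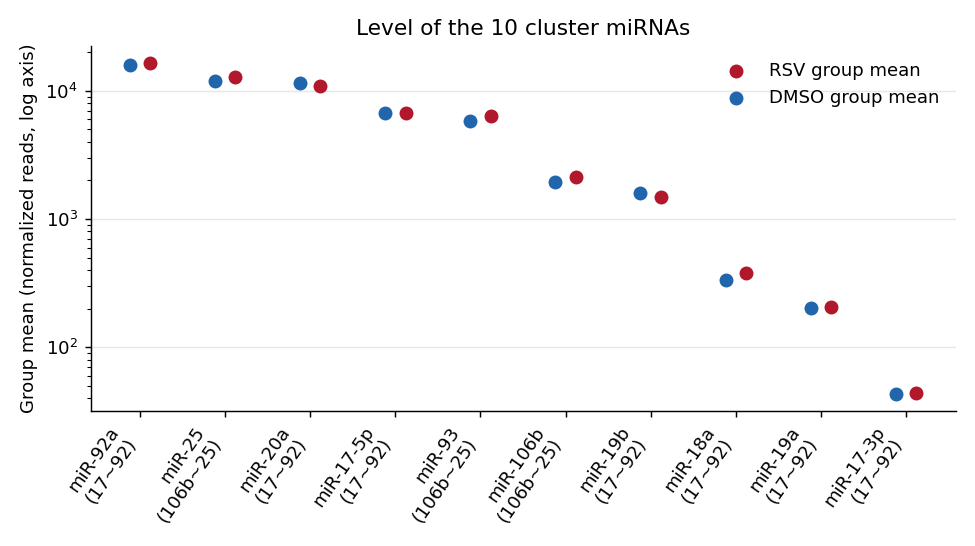
Authors' group means of the 10 cluster miRNAs in normalized reads on a log axis, ordered by level, with RSV in red and DMSO in blue. Levels run from 16568 for miR-92a to 44.0 for miR-17-3p in RSV, and the RSV and DMSO points of each miRNA lie close together.

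By level, miR-92a, of the miR-92 family, led the 10 with 16568 normalized reads in RSV and 15941 in DMSO, 35th in rank among all 765 miRNAs. It was followed by miR-25, of the same family, miR-20a, miR-17-5p, miR-93, miR-106b, miR-19b, miR-18a, miR-19a and miR-17-3p. This order was the same in both groups. The closest neighbours were miR-25 and miR-20a, whose means differed by a factor of 1.17 in RSV and 1.02 in DMSO, and miR-17-5p and miR-93, at 1.06 and 1.15. The spread over libraries is known only for the last 3 of the order, and among them each step, from miR-18a to miR-19a and from miR-19a to miR-17-3p, was wider than the spread within a group. Whether the 7 higher members differ from their neighbours beyond their spread cannot be told from group means. A level compares miRNAs in reads, and capture of a miRNA in a library can differ by its sequence.

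Products of 1 transcript stood far apart in level. Within miR-17~92, miR-92a had 80.2 times the reads of miR-19a in RSV and 78.9 times in DMSO. The arms of the miR-17 hairpin differed by a factor of 152 in RSV and 155 in DMSO, with miR-17-5p as the high arm. Within miR-106b~25, miR-25 had 6.05 times the reads of miR-106b in both groups, and miR-93 had 3.01 times in RSV and 2.97 times in DMSO. These spacings differed little between the groups. Between the miR-19 products, miR-19b had 7.14 times the reads of miR-19a in RSV and 7.84 times in DMSO. The widest shift was between the members of lowest and highest log2 ratio, where miR-19b had 3.90 times the reads of miR-18a in RSV and 4.71 times in DMSO.

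Together the 10 miRNAs held 0.868% of all miRNA reads in RSV and 0.763% in DMSO. The miR-17~92 cluster gave 63.1% of the members' reads in RSV and 65.0% in DMSO. The sum of all miRNA group means was lower in RSV, 6637955 against 7340618 normalized reads, so a ratio of shares lies 0.15 above the ratio of normalized reads on the log2 scale for every miRNA. On that scale all 10 members were higher in RSV. Each log2 ratio given here is that of normalized reads unless it is called a ratio of shares.

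The miR-17 family holds miR-17-5p, miR-20a, miR-106b and miR-93 from these clusters, miRNAs known to repress CDKN1A and RB-family mRNAs. The mean of miR-17-5p was 6709 normalized reads in RSV and 6703 in DMSO, a log2 ratio of 0.0014 with a 95% counting interval of -0.027 to 0.030. This interval, here and below, covers the counting of reads only and is too narrow for the difference between cultures, since the libraries of a group differed by more than counting. The mean of miR-20a was 10958 in RSV and 11573 in DMSO, a log2 ratio of -0.079 (-0.10 to -0.057), and its ratio of shares was 0.066. Of these neighbours on 1 transcript, miR-17-5p was thus level between the groups and miR-20a had a percent change of -5.32.

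The other members of the family come from miR-106b~25. The mean of miR-106b was 2115 normalized reads in RSV and 1956 in DMSO, a log2 ratio of 0.11 (0.061 to 0.16). The mean of miR-93 was 6357 in RSV and 5809.8 in DMSO, a log2 ratio of 0.13 (0.0998 to 0.16), the highest among the 7 members with a mean of at least 1000. Both were higher in RSV, while their family partners in miR-17~92 were level or lower in normalized reads. Summed over its 6 miRNAs, of which 4 are members, the miR-17 family stood at 26179 normalized reads in RSV and 26090 in DMSO, a log2 ratio of 0.0049 (-0.0096 to 0.019) and a ratio of shares of 0.15.

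The miR-92 family is represented by miR-92a at the end of miR-17~92 and by miR-25 in miR-106b~25. They are known to repress regulators of cell survival and, for miR-92a, integrin ITGA5. The mean of miR-92a, 16568 against 15941, gave a log2 ratio of 0.056 (0.037 to 0.074). The mean of miR-25 was 12798 in RSV and 11840.0 in DMSO, a log2 ratio of 0.11 (0.091 to 0.13). Both were higher in RSV, miR-92a by 3.93% and miR-25 by 8.09%. The whole family of 5 listed miRNAs summed to 31421 normalized reads in RSV and 29602 in DMSO, and its log2 ratio was 0.086.

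The miR-19 family, a part of miR-17~92 known for promoting cell survival, consists of miR-19a and miR-19b. The mean of miR-19b was 1475 normalized reads in RSV and 1584 in DMSO, a log2 ratio of -0.10 (-0.16 to -0.043), the lowest of the 10, and its ratio of shares was 0.042. For miR-19a the reads of each library were recovered, and they are given next. The family sum was 1681 in RSV and 1786 in DMSO, a log2 ratio of -0.087 and a ratio of shares of 0.058.

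**Figure D2:**
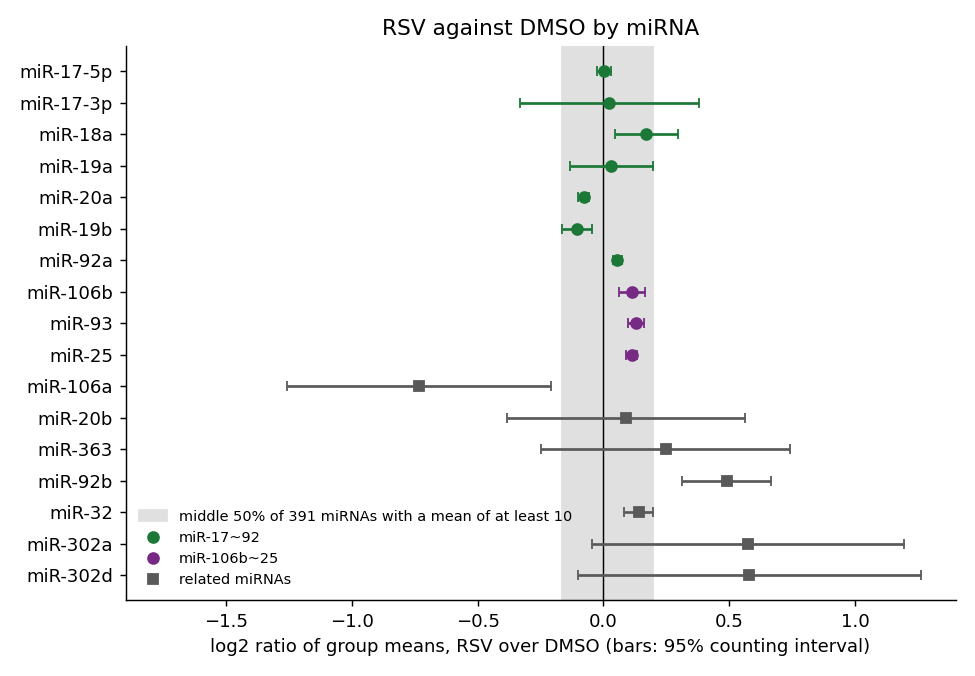
Log2 ratio of the authors' RSV mean over their DMSO mean for the 10 cluster miRNAs (circles) and 7 related miRNAs (squares), with bars for the 95% counting interval and a grey band from -0.17 to 0.20 that holds the middle 50% of 391 miRNAs. All 10 circles lie within the band, and the 3 of miR-106b~25 lie side by side between 0.11 and 0.13. The middle 50% of the 146 miRNAs with a mean of at least 1000, not drawn, ran from -0.1574 to 0.1133, and miR-93 lay above it.

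Reads of single libraries were recovered for 3 members, miR-18a, miR-19a and miR-17-3p. In miR-18a, the only member of the miR-18 family, the RSV libraries of size factor 1.54, 1.29 and 0.935 had 391, 400 and 344 normalized reads, and the DMSO libraries of 0.922, 0.823 and 0.729 had 307, 370 and 331. The groups overlapped, since the lowest RSV library lay under the highest DMSO library. The log2 fold change (log2FC) was 0.17 with a standard error (SE) of 0.11, and limma voom gave an adjusted P-value of 0.345.

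In miR-19a, the RSV libraries had 195, 237 and 187 normalized reads in the same order, and the DMSO libraries 205, 198 and 203. The DMSO values lay within the range of the RSV values. Its log2FC was 0.025 (SE 0.11), with an adjusted P-value of 0.933 by limma voom. The RSV library of size factor 1.29 was above every other library, and without it the log2FC was -0.080.

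In miR-17-3p, the lowest member, the RSV libraries had 36.3, 57.2 and 38.5 normalized reads and the DMSO libraries 44.5, 40.1 and 45.3. The RSV library of 1.29 was again the highest and the other RSV libraries were the lowest, so the groups overlapped. The log2FC was -0.0099 (SE 0.20), with an adjusted P-value of 0.983 by limma voom. Without the RSV library of 1.29 the log2FC was -0.22, and without that of 1.54 it was 0.13, so its sign rests on single libraries.

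Thus 0 of the 3 tested members passed an adjusted P-value of 0.05 by limma voom, 0 had an unadjusted P-value under 0.05, and 0 had groups that did not overlap. Among all 225 tested miRNAs, 9.78% passed (13 or 5.78% higher in RSV and 9 or 4% lower), 61 had an unadjusted P-value under 0.05, and 32.9% had groups that did not overlap. The SEs of miR-18a and miR-19a, both 0.11, can be set beside a median SE of 0.11 over the 42 tested miRNAs with a mean of at least 200, and that of miR-17-3p, 0.20, beside a median of 0.24 over the 107 with a mean of 10 to 50. The other 7 members had too many possible combinations of reads, from 7 to 24665 per group mean, and were not tested.

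**Figure D3:**
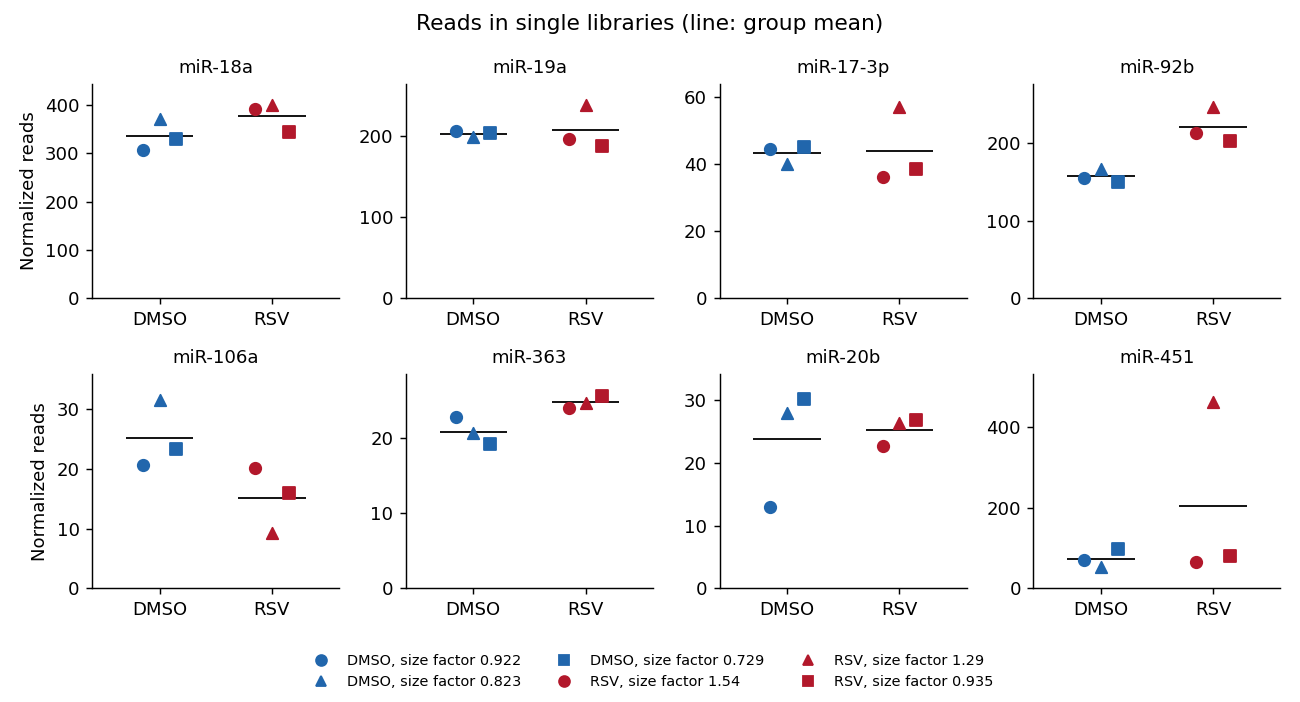
Normalized reads in each of the 6 libraries for the 3 recovered cluster miRNAs, 4 related miRNAs and miR-451, with the DMSO libraries in blue, the RSV libraries in red, 1 marker shape per size factor and a line at each group mean. The RSV library of size factor 1.29 (red triangle) is the highest in miR-18a, miR-19a, miR-17-3p, miR-92b and miR-451. In miR-92b all 3 RSV libraries lie above all 3 DMSO libraries.

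In normalized reads, the median size of the members' ratios lay under that of miRNAs at similar minimum means, sets that include members. The same comparison was not made for ratios of shares. The median log2 ratio of the 10 was 0.044 and the median size without sign 0.091, where the 391 miRNAs with a mean of at least 10 had 0.0049 and 0.18. Since 7 members are abundant, the 146 miRNAs with a mean of at least 1000 are the closer comparison, and these had -0.017 and 0.14. Of those 146, 65 (44.5%), the 7 abundant members included, had a log2 ratio no larger in size than 0.13, the highest among the abundant members. A ratio of that size was therefore common at this level of expression. Those of miR-25, miR-106b and miR-93 were larger in size than those of 57, 58 and 64 of the 146. The counting interval left out 0 for 7 of the 10 members, and for 59.6% of the 391 miRNAs. Among those with a mean of at least 1000 it did so for 6 of the 7 members and for 89% of the 146 miRNAs, so nothing about the members is read from it.

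**Figure D4:**
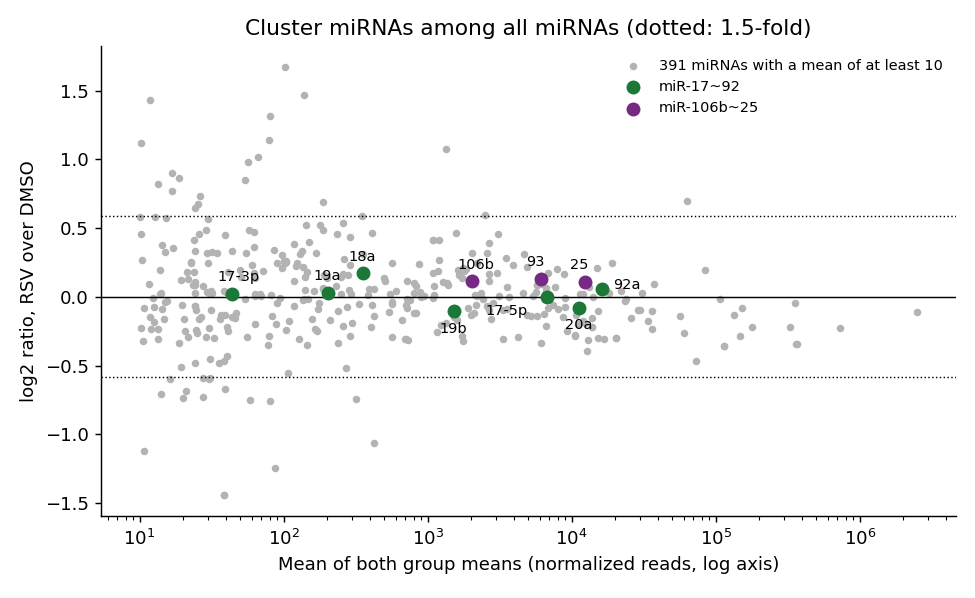
Log2 ratio of the authors' RSV mean over their DMSO mean against the mean of both groups (normalized reads, log axis) for 391 miRNAs in grey, with miR-17~92 in green, miR-106b~25 in purple and dotted lines at a 1.5-fold difference. The 10 cluster miRNAs lie near 0 over the whole range of levels, and none reaches a dotted line.

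Most relatives of the clusters were low in level, with miR-32 as the exception. Of 11 listed relatives, 9 were in the table, and miR-367 and miR-302b were not among its rows. In the paralogous cluster miR-106a-363, the authors' means in RSV and DMSO were 15.1 and 25.2 normalized reads for miR-106a, 2.39 and 2.86 for miR-18b, 25.2 and 23.7 for miR-20b, and 24.8 and 20.9 for miR-363. Thus miR-17-5p had 443 times the reads of miR-106a in RSV and 266 times in DMSO, and the members supplied 93.5% to 100% of the reads of each seed family. Since miR-106a, miR-20b and miR-18b are nearly identical to members, how the authors' mapping divided reads between them is uncertain.

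Of the 6 tested relatives, 1 was called by limma voom and 4 had groups that did not overlap, against 9.78% and 32.9% of all tested miRNAs, and their median log2FC was 0.35 against 0.025 over all tested. The one called was miR-92b, which shares the seed of miR-92a and miR-25 but comes from its own gene. Its RSV libraries had 213, 247 and 202 normalized reads and its DMSO libraries 155, 166 and 150, so every RSV library was above every DMSO library. It was up-regulated with a log2FC of 0.48 (SE 0.11) and an adjusted P-value of 0.0268 by limma voom. The call was lost when any 1 library was left out except the RSV library of 0.935, with adjusted P-values by limma voom of 0.0506 and 0.0553 without the RSV libraries of 1.54 and 1.29, and 0.111, 0.0735 and 0.112 without the DMSO libraries of 0.922, 0.823 and 0.729. Its log2FC stayed between 0.40 and 0.54 in all 6 of these fits, the one without the RSV library of 0.935 included.

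The relative with the lowest log2FC was miR-106a, the counterpart of miR-17-5p in the paralogous cluster. Its RSV libraries had 20.1, 9.27 and 16.0 normalized reads, against 20.6, 31.6 and 23.3 for DMSO. The groups did not overlap, although the highest RSV and the lowest DMSO values nearly met. Its log2FC was -0.74 (SE 0.32), with an adjusted P-value of 0.175 by limma voom. Leaving out 1 library moved the log2FC between -1.08, without the RSV library of 1.54, and -0.40, without that of 1.29. The log2FC was 0.21 for miR-363 and 0.21 for miR-20b, and 0.56 and 0.60 for miR-302a and miR-302d, miRNAs of pluripotent cells with a seed close to that of miR-17. None of these 4 passed, with adjusted P-values by limma voom of 0.261 to 0.742. The DMSO library of 0.729 was the lowest in miR-302a and miR-302d, and without it their log2FC was 0.35 and 0.29. For miR-32, of the miR-92 family, only the means of 1810 normalized reads in RSV and 1642 in DMSO were available, a log2 ratio of 0.14 (0.083 to 0.20).

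Of 80 other miRNAs with a mean of at least 100 and recovered reads, miR-451, miR-486, a miRNA on the muscle list, and miR-1246 were most like the mean log2 profile of the 3 recovered members, with Pearson's r of 0.93, 0.83 and 0.82 over the same 6 libraries. This is a description, and the points share their libraries and scaling. The likeness to miR-451, a miRNA of red blood cells, followed the RSV library of 1.29, where miR-451 stood at 463 normalized reads while the other 5 libraries had 53.4 to 97.4. The miRNA miR-486, whose cell source was not tested, was also highest in this library, at 645 normalized reads against 509 to 601 in the others. So was miR-1246, at 230 against 109 to 149. The other miRNAs found from the blood list did not share this peak. The list was not split by type of blood cell, so their values do not test for red blood cell RNA. Of 5 on the blood list 4 were found, miR-451, miR-223, miR-150 and both arms of miR-142, and in the RSV library of 1.29 miR-223 and miR-142-3p had 0 reads, while miR-142-5p had 2.32 normalized reads and miR-150 had 1.55. Both arms of miR-142 and miR-150 were highest in the RSV library of 0.935, at 35.3 (3p), 66.3 (5p) and 72.7. Summed, the list stood at 75.9 to 467 normalized reads per RSV library and 91.1 to 171 per DMSO library, and miR-223 was at 0 in all RSV libraries. The part of blood RNA in the members' values was not tested.

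The mRNA part of the table was searched for 32 host genes, regulators and known targets of the clusters. Only 6 of the 32 (18.8%) could be named, so the list as a whole could not be read. These 6 had names because the study lists them among its differentially expressed genes, so their differences are a description with no test. The host genes MCM7 and MIR17HG and the regulator MYC were among those without a name. The mRNA libraries had size factors of 1.09, 1.08 and 1.05 in RSV and 0.964, 0.960 and 0.886 in DMSO, and could not be linked to the miRNA libraries.

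Among regulators, E2F1, a cell cycle transcription factor that activates miR-17~92 and, along with its host MCM7, miR-106b~25, had 372, 465 and 237 normalized reads in RSV and 93.4, 91.7 and 93.6 in DMSO. Its RSV mean was 3.86 times its DMSO mean, with all RSV libraries higher and more spread. Over the same cultures the ratio of miR-17-5p, read from the small RNA, was 1.00, and that of miR-106b 1.08.

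Among targets, CDKN1A, the cell cycle inhibitor p21, had 22632, 21990 and 22215 normalized reads in RSV and 5722, 5667 and 5659 in DMSO, a ratio of 3.92. TXNIP, which binds thioredoxin, had 4898, 5002 and 3977 in RSV and 1723, 1764 and 1795 in DMSO. KLF4, a transcription factor, had 2040, 2087 and 2020 in RSV and 1543, 1585 and 1538 in DMSO. In these 3 targets every RSV library was above every DMSO library. They had names only as differentially expressed genes, which favours this, and no share over all mRNAs was computed.

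The other 2 named targets were lower in RSV. TGFBR2, a TGF-β receptor, had 1897, 1951 and 1520 normalized reads in RSV and 2735, 2813 and 2654 in DMSO. HIF1A, the oxygen-regulated transcription factor, had 3630, 4111 and 3261 in RSV and 5282, 5213 and 5339 in DMSO. Named targets thus lay on both sides, 3 higher and 2 lower, among genes already selected for a difference. The 10 cluster miRNAs differed by at most 12.6% in normalized reads.

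**Figure D5:**
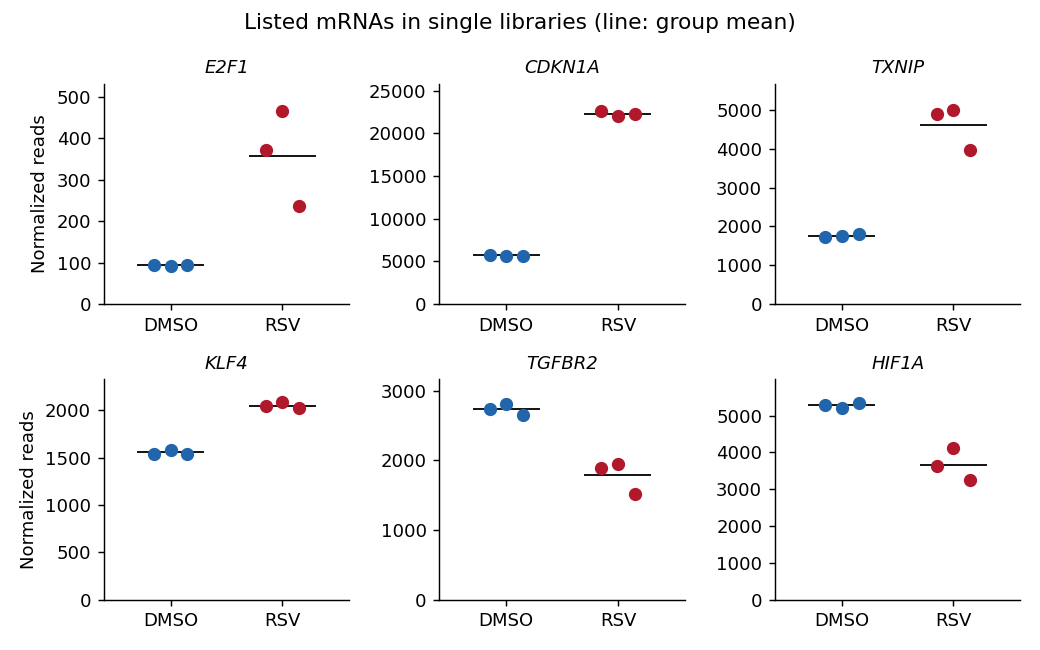
Normalized reads of 6 named mRNAs in each of the 3 DMSO (blue) and 3 RSV (red) mRNA libraries, with a line at each group mean. E2F1, CDKN1A, TXNIP and KLF4 are higher in every RSV library and TGFBR2 and HIF1A lower, in genes that had a name only because the study lists them as differentially expressed.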

How the data were processed

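RNA of 3 RSV and 3 DMSO cultures was sequenced by the authors for miRNA and mRNA. Groups follow the treatment given in the labels. The authors mapped miRNA reads to bosTau8 with Bowtie 0.12.9 and compared groups with DESeq. The mRNA aligner and counter are not given in the sources used here. The deposited table holds, per miRNA or mRNA, the mean over a group of counts divided by size factors, and the authors' log2 fold change, P-value, adjusted P-value and call, which were not used. In the mRNA part, 18421 of 26332 rows had lost a decimal point in a mean, and it was placed where whole reads existed.

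Each group mean is a sum of whole reads of 3 libraries, each divided by 3 times its size factor. Step sizes were taken from the lowest means, and reads were accepted where 1 combination existed within 2-fold of the mean, widened for counting. Means over 1000 were not broken down, and for members above it the possible combinations were only counted. For recovered miRNAs with a mean of at least 10, the test was limma voom (version 3.58.1 of limma, under R 4.3.3), with size factors as library sizes and Benjamini-Hochberg adjustment over 225 miRNAs, at a threshold of 0.05. The recovery and the fit were tested on simulated data. P-values measure the spread between these samples, which the paper calls independent experiments and which may not cover the spread between animals. No 2 libraries of a group agreed within counting noise. An exact permutation test of 3 against 3 libraries cannot go below P = 0.1.

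Named were all 10 members, the relatives, mRNAs of the list with a name, and the 3 miRNAs most like the members. Members and lists were chosen with earlier results of these data known. A limma test planned for the mRNAs was not run, since they had names only as differentially expressed genes. Names of mRNAs came from the study's sheet and gene neighbours from RefSeq (ARS-UCD2.0), whose coordinates belong to another build. Mature sequences were not analysed here. Alternatives were the minimum mean, library scaling, limma trend on log2(normalized reads + 1) and leaving out each library, and ratios of shares were added after seeing the data. Python 3.11.15, numpy 2.4.6, pandas 2.3.3, numba 0.67.0 and matplotlib 3.10.9 were used.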

Additional observations from a re-analysis of the deposited data

How the results depend on the processing

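No tested member was called under any of the 11 alternatives to the limma voom fit that were run, and miR-17-3p, at a mean under 50, was tested in 10 of them. As a share of all miRNA reads, a setting chosen after seeing the data, the median log2 ratio of the 10 members was 0.19, and without the 3 highest miRNAs 0.18, against 0.044 in normalized reads, and miR-20a and miR-19b changed sign (0.066 and 0.042). The log2 fold change also changed sign for miR-19a with scaling by the sum of recovered reads (-0.010) and for miR-17-3p with the upper quartile (0.060). Leaving out 1 library in turn, that of miR-19a ran from -0.080 to 0.088, that of miR-17-3p from -0.22 to 0.13, that of miR-18a from 0.11 to 0.24, and, among relatives, miR-20b from -0.23 to 0.41, miR-106a from -1.08 to -0.40, miR-302a from 0.35 to 0.69, miR-302d from 0.29 to 0.82 and miR-363 from 0.17 to 0.28. The miRNAs called lower in RSV were 9, and 14 with no minimum mean and 5 with a minimum of 50, where 599 and 118 miRNAs were tested. Leaving out 1 library, 4 to 27 miRNAs were called, 1 to 16 higher and 3 to 11 lower, and 0 to 1 relatives, against 22, 13, 9 and 1. The cause of these shifts was not tested. Without any 1 DMSO library (0.922, 0.823 or 0.729), 7, 7 and 4 miRNAs were called. No paired analysis was possible because the recovered libraries carry no replicate number. The authors' P-values were not used, so group means without single libraries limit the 7 abundant members to counting error here. Depth limits miR-17-3p, with 33 to 74 reads per library, to an SE of 0.20.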
